A study of Mus musculus with 15 samples.

Results

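Solute carriers are membrane proteins that move glucose, amino acids, lactate, metal ions, phosphate, nucleosides and many other small molecules into and out of the cell and its organelles. Their gene symbols begin with Slc and a family number. The 112 genes described here are the well-expressed solute carriers of C2C12 cells, a mouse line of skeletal muscle precursors (myoblasts) that can fuse into myotubes. They are the rows whose symbol has the form Slc, number, a, number and whose FPKM (fragments scaled by transcript length and sequencing depth) was 5 or more in at least 3 of 15 libraries. Of 341 rows with such a symbol among 23352 in the table, 229 fell short, and 18 of these were listed at 0 in every library. The members were thus selected on the FPKM levels of these same libraries, so their levels are given as a description. Of the 112, 86 were at 5 FPKM or more in all libraries and 26 were below it in at least 1, and for the latter the choice favoured groups in which they are high. The threshold was passed in libraries of 1 group alone by 5 members, Slc17a5 and Slc19a2 through MLX shRNA and Slc36a4, Slc40a1 and Slc9a3r1 through the GFP control, so these 5 had to differ between groups. The pattern also takes in 4 genes that are no carriers (Slc4a1ap, Slc7a6os, Slc9a3r1 and Slc9a3r2), which leaves 108 carriers. The sources used here do not say whether counting used strand, so 4 members with 10% or more of their exon bases opposite another gene (Slc24a5, Slc3a1, Slc4a2 and Slc6a9) are uncertain.

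Messenger RNA was measured in 15 C2C12 libraries, 3 in each of 5 groups, with no age, time or dose in the labels. All cells had been transduced. The GFP control carried a vector that expresses green fluorescent protein alone (titled MCS, while the protocol names an empty vector), the MLX-WT group wild-type MLX, the MLX-DN group a form labelled dominant negative, the MLX shRNA group a short hairpin against Mlx, and the non-targeting shRNA group a hairpin with no target. The sources used here do not give the constructs' promoters, the selection of cells or the number of hairpins. MLX, of the bHLH leucine zipper family, binds DNA as a pair with MondoA (Mlxip), ChREBP (Mlxipl) or MAD proteins, and with the first pair it is known for raising genes when glucose is plentiful, through E-box type sequences. In muscle, GLUT transporters bring glucose in, monocarboxylate transporters exchange lactate with the blood, and the mitochondrial carrier family links the cytosol to oxidation, which is the setting in which these carriers are usually studied.

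Mlx was read first as a check of the labels. Its mean was 17.1 FPKM in the GFP control, 644 with MLX-WT, 394 with MLX-DN, 17.1 with the non-targeting shRNA and 3.21 with MLX shRNA, where MLX-WT and MLX-DN values may hold reads of the constructs. Depth, recovered from the steps between low FPKM values, was 37.0 to 82.8 M reads per library. Within each group, log2 values of any 2 libraries had an r of 0.998 to 0.999 (11945 genes). Whether the 3 libraries of a group stand for 3 cultures is not in the labels, and p-values then reflect only how far these libraries spread, which may be technical. The genes listed for myoblasts, Myod1, Myf5, Des, Cdh15 and Myog, were all expressed, though Myog also marks cells that differentiate. So were all 8 markers of differentiated muscle. Their summed FPKM lay at 13810.5 to 14058 (GFP control), 8844 to 9097 (non-targeting shRNA), 15049 to 15294 (MLX-WT), 11166 to 11409 (MLX-DN) and 12934 to 14154 (MLX shRNA). Against their own controls 4 of these 8 muscle markers were higher and 3 lower with MLX-WT, and none higher and 7 lower with MLX-DN. With MLX shRNA 7 were higher and 1 lower. Of all tested genes, 27.6% and 42.7% (MLX-WT), 32.6% and 48.8% (MLX-DN) and 30.8% and 39.3% (MLX shRNA) were higher and lower. The cells labelled myoblasts thus held differentiated muscle RNA at levels that moved with the groups, and its part in the results below was not tested. All endothelial, adipocyte and epithelial markers were under 1 FPKM in every library. Among 4 immune markers, Cd14 averaged 2.42 to 4.22 FPKM, Ptprc read 4.39, 4.52 and 4.74 FPKM with MLX-DN and at most 0.0099 FPKM elsewhere, while Emr1 was listed at 0 throughout and Lyz2 averaged at most 0.188. Among 3 neuronal markers, Tubb3 averaged 7.63 to 21.4 FPKM, Syp stayed under 1 FPKM, and Snap25 read 1.41, 0 and 0 FPKM in the MLX shRNA libraries and averaged at most 0.002 elsewhere. In bulk RNA, fewer cells of a type and less RNA per cell cannot be told apart.

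The members spanned a wide range of levels. Over 15 libraries their means ran from 2.38 FPKM (Slc40a1, the iron exporter ferroportin) to 464 FPKM (Slc25a5, an ADP/ATP carrier of the inner mitochondrial membrane), with a median of 12.04 FPKM. FPKM is scaled by length, so these levels can be set beside each other. Summed over all 112, the level was 3368 ± 10.3 FPKM in the GFP control (mean ± SD, n = 3), 3291 ± 43.3 with MLX-WT, 3294 ± 27.5 with MLX-DN, 3559 ± 36.3 with the non-targeting shRNA and 3375 ± 26.6 with MLX shRNA. The 24 mitochondrial carriers made up the largest part of that sum, 1518 ± 2.16 FPKM in the GFP control, of which Slc25a5, Slc25a4 and Slc25a3 alone held 442, 359 and 337. The 13 amino acid carriers summed to 254 ± 0.242 FPKM there, the glucose pair to 63.4 ± 0.605 and the lactate pair to 20.7 ± 0.253. Outside these classes Slc29a1, the equilibrative nucleoside transporter ENT1, stood highest in the GFP control at 352 FPKM. It was followed there by the zinc transporter Slc39a7 (99.8), the taurine transporter Slc6a6 (97.6) and Slc44a2, a choline transporter-like protein (97.4). Over 15 libraries the order was Slc29a1 (301 FPKM), Slc6a6 (126), Slc44a2 (103) and Slc39a7 (99.7). The ratio of the highest to the lowest group mean had a median of 1.49 over members, with 20 members at 2 or more and 21 under 1.25. The spread inside a group was small beside this, with a median coefficient of variation of 2.77%. By group, 40 members had their highest mean with MLX shRNA, 27 in the GFP control, 19 with MLX-DN, 17 with the non-targeting shRNA and 9 with MLX-WT, and 43 had their lowest in the GFP control. The same counts were not made over all tested genes, and the members were chosen on these levels. They are thus a description and not a trait of carriers. Just inside the threshold lay Slc31a2, Slc25a22 and Slc38a6, for which the third highest library read 5.18, 5.32 and 5.46 FPKM. Just outside it lay Slc37a2, Slc22a5 and Slc16a11 at 4.95, 4.91 and 4.90.

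MLX and its partners are known to bind the E-box CACGTG, so the promoter letters of members were read from RefSeq (build GRCm38.p6, 250 bases before to 50 after the annotated start). A promoter was found for 83 of 112 members, and 13 of these (15.7%) held CACGTG, which reads the same on both strands. The share was 12.1% of the 8685 tested genes with a promoter and 8.09% of all 27025. A pair of CACGTG 5 bases apart, the strict form of the carbohydrate response element, was in none of these promoters, nor in those of any of the 27025 genes. This exact string therefore cannot tell members from other genes, and looser forms of the element were not searched. TGATGNAA, searched on both strands as the element read by ATF4, was in 3 member promoters (3.61%, with 2.68% of tested genes), those of Slc1a4, Slc50a1 and Slc9a9, none of which held CACGTG. The promoters of 5 members with an E-box are shown because they cover lactate, amino acid and mitochondrial carriers and the sole member with 2 matches, besides 1 strongly changed ion carrier. They are those of Slc16a1 (lactate transporter MCT1), Slc38a7 (a lysosomal glutamine transporter), Slc25a1 (the mitochondrial citrate carrier), Slc12a7 (the potassium-chloride cotransporter KCC4) and Slc20a1 (the phosphate transporter PiT-1). Capitals mark CACGTG, and the letters run 5′ to 3′ along the gene's strand.
Slc16a1: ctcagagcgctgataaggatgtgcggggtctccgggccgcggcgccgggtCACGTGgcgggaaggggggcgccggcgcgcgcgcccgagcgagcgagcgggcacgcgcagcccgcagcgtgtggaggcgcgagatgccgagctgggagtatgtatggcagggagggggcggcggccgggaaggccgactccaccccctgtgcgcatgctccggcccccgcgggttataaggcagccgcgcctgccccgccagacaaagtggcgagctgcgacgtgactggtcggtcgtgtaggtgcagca
Slc38a7: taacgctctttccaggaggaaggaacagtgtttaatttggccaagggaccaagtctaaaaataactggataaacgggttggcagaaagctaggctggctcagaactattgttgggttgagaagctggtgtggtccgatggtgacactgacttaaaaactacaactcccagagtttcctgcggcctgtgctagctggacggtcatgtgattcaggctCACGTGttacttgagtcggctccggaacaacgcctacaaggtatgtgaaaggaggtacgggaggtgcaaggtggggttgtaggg
Slc25a1: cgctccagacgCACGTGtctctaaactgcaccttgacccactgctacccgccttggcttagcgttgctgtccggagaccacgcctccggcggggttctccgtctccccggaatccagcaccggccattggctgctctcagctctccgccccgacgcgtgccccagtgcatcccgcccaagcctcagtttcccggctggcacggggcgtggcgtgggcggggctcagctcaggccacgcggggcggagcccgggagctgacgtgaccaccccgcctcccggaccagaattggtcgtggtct
Slc12a7: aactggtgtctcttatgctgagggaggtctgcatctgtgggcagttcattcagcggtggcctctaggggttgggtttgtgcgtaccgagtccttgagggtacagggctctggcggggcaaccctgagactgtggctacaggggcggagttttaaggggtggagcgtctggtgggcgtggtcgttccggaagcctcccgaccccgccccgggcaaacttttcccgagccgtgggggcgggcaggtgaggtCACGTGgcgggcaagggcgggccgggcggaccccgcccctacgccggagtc
Slc20a1: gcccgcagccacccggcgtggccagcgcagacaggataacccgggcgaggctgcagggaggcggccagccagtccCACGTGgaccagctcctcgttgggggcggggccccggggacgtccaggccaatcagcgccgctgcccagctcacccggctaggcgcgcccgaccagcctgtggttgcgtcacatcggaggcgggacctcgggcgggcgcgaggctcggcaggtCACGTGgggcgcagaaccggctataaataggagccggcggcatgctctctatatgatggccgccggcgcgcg
These windows were chr3:104638414-104638713 on the plus strand for Slc16a1, chr8:95853442-95853741 on the minus strand for Slc38a7, chr16:17928170-17928469 on the minus strand for Slc25a1, chr13:73763410-73763709 on the plus strand for Slc12a7 and chr2:129198523-129198822 on the plus strand for Slc20a1. They cover the upstream region and the first bases of each gene. The E-box began 200 bases before the start of Slc16a1, 34 before Slc38a7, 239 before Slc25a1 and 1 before Slc12a7, where it spans the start (the first of 2 annotated for this gene). In Slc20a1 the matches began 175 and 22 bases before the start. The other 8 members with CACGTG were Slc25a33, Slc25a36, Slc27a1, Slc29a1, Slc30a5, Slc31a2, Slc33a1 and Slc37a3. A match describes letters in the window and does not show binding, and a link between matches and changes in level was not tested. Members with CACGTG went both ways. In the order MLX-WT, MLX-DN and MLX shRNA against own controls, Slc12a7 differed by -0.65, -0.86 and -0.77 on the log2(FPKM + 2) scale. Slc25a36 differed by 0.24, 0.44 and 0.22. RefSeq coordinates are on GRCm38.p6, while the submitters' processing notes name mm9.

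Against the GFP control, 46 members were higher and 42 lower with MLX-WT by limma (Benjamini-Hochberg adjusted p under 0.05, two-sided). Over all tested genes 27.6% were called higher and 42.7% lower, where the members had 41.1% and 37.5%. With MLX-DN, 51 members were higher and 41 lower than the GFP control, beside 32.6% and 48.8% of tested genes. MLX shRNA against the non-targeting shRNA gave 36 higher and 40 lower, beside 30.8% and 39.3%. MLX-DN against MLX-WT gave 50 higher and 38 lower, beside 33.2% and 38.9%. The median member differed by 0.0073, 0.029, 0.021 and 0.053 on the log2(FPKM + 2) scale in these 4 comparisons, and the median tested gene by -0.051, -0.079, -0.025 and -0.022. The split of calls moved with the scaling of the libraries. After centring each library on its median the counts were 57 higher and 33 lower for MLX-WT, 65 and 35 for MLX-DN and 54 and 32 for MLX shRNA, and after quantile normalization 55 and 37, 65 and 38, and 49 and 36. Of all tested genes, 37.8% and 31.6%, 42% and 39%, and 39.1% and 31.1% were higher and lower in these comparisons with centring, and 33.4% and 36.4%, 41.2% and 40%, and 36.7% and 33% with quantile normalization. Without the 5 members past the threshold in 1 group alone, the counts as deposited were 46 and 38, 50 and 38, and 33 and 38.

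The controls themselves lay apart. The non-targeting shRNA was higher than the GFP control in 57 members and lower in 30, beside 37% and 37.1% of tested genes, and the median member differed by 0.12. Differences of the main members are therefore given against the group's own control and against the other one, and a member called in the same direction against both is counted apart. Where a pair of differences is given for 1 group, the own control comes first, which is the GFP control for MLX-WT and MLX-DN and the non-targeting shRNA for MLX shRNA. With MLX-WT 13 members were higher than both controls and 28 lower than both, beside 11.4% and 23.5% of tested genes. With MLX-DN 20 were higher and 32 lower, beside 15.1% and 34.9%. With MLX shRNA 31 were higher and 26 lower, beside 21.4% and 28%. In percent of the 112 members these counts are 11.6 and 25, 17.9 and 28.6, and 27.7 and 23.2. Some counted members passed the threshold in 1 group alone, which favoured their call. They are Slc17a5 and Slc19a2 in the MLX shRNA higher count, Slc40a1 in each lower count and Slc36a4 in the MLX shRNA lower count. With median centring the counts became 17 and 21, 31 and 24, and 46 and 22, beside 18.1% and 13.6%, 25.3% and 21.9%, and 27.8% and 22% of tested genes. Comparisons with 1 control share its libraries, so they are not independent of each other. Of the calls on the members named here, those of 0.2 or more in size on the log2 scale kept their call under every alternative run, and the largest call lost under any of them was 0.17.

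**Figure D1:**
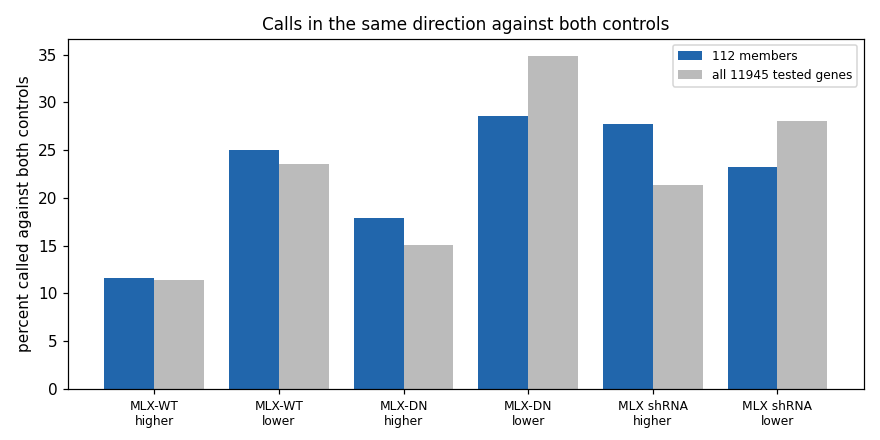
Percent of the 112 members (blue) and of all 11945 tested genes (grey) called in the same direction against both controls, by group and direction, on an axis that starts at 0. For MLX-WT the member and background bars are nearly level (11.6% beside 11.4% higher, 25% beside 23.5% lower), and the widest gaps are for MLX-DN lower (28.6% beside 34.9%) and MLX shRNA higher (27.7% beside 21.4%). With median centring, not drawn, these were 21.4% beside 21.9% and 41.1% beside 27.8%. The MLX shRNA higher bar counts Slc17a5 and Slc19a2, which that group alone brought past the threshold. Each lower bar counts Slc40a1, which the GFP control alone did.

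Glucose carriers: 2 of 13 symbols that begin with Slc2a were members, Slc2a1 and Slc2a6. Slc2a1 (GLUT1), which carries basal glucose uptake, was highest with MLX-WT, and Slc2a6 (GLUT6), a hexose transporter found on lysosomes, was highest in the GFP control and lowest with MLX-DN. Slc2a1 read 28.1, 29.1 and 28.4 FPKM in the GFP control libraries and 43.1, 43.1 and 41.2 FPKM in the non-targeting shRNA libraries. The MLX-WT libraries read 48.8, 45.8 and 49.9 FPKM, the MLX-DN libraries 32.5, 34.1 and 31.9 FPKM and the MLX shRNA libraries 37.3, 41.1 and 37.7 FPKM. All 3 MLX-WT libraries lay above every library of both controls, and all 3 MLX-DN libraries lay between the 2 controls. The log2 difference of MLX-WT was 0.71 from the GFP control (SE 0.039, adjusted p = 1.93e-10 by limma) and 0.17 from the non-targeting shRNA. MLX-DN differed by 0.19 and -0.35, opposite signs against the 2 controls, and by -0.52 from MLX-WT. The MLX shRNA difference from its own control was -0.13 (adjusted p = 0.00803 by limma), with 0.41 against the GFP control, and its call against its own control was lost with median centring (adjusted p = 0.0708). The 3 GFP control libraries held 34.7, 34.8 and 34.97 FPKM of Slc2a6 and the 3 non-targeting ones 11.5, 11.7 and 11.7 FPKM. MLX shRNA libraries held 11.03, 12.98 and 11.6 FPKM, MLX-WT libraries 17.6, 16.7 and 17.4 FPKM and MLX-DN libraries 7.47, 7.57 and 7.44 FPKM. No group overlapped the GFP control, which stood above all others, and MLX-DN lay below all other libraries. MLX-DN differed by -1.96 from the GFP control (SE 0.039, adjusted p = 6.68e-16 by limma) and by -0.52 from the non-targeting shRNA. MLX-WT differed by -0.94 and 0.49, so its sign turned with the control. MLX shRNA differed by 0.021 from its own control (adjusted p = 0.65 by limma).

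The other 11 symbols, which include the pseudogene Slc2a4rg-ps, no carrier, stayed below the threshold, 8 of them under 1 FPKM in every library. Slc2a4, the insulin-responsive GLUT4 of mature muscle, reached at most 1.03 FPKM, and Slc2a8 at most 3.54, 2 genes named after their values were seen. Of 6 genes of glucose entry listed with the carriers, 5 were tested, and 2 rose and 1 fell with MLX-WT, 1 rose and 3 fell with MLX-DN and none rose and 4 fell with MLX shRNA, each against its own control, where 27.6% and 42.7% (MLX-WT), 32.6% and 48.8% (MLX-DN) and 30.8% and 39.3% (MLX shRNA) of all tested genes were higher and lower. Txnip, an arrestin that takes GLUT1 off the membrane and a known target of MondoA and MLX, averaged 30.2 FPKM in the GFP control and 39.3 with the non-targeting shRNA. Means in the MLX groups were 37.9 (MLX-WT), 1.31 (MLX-DN) and 4.72 FPKM (MLX shRNA). The hexokinase Hk1, which traps glucose after entry, averaged 44.7 FPKM in the GFP control, 32.0 with the non-targeting shRNA, 22.6 with MLX-DN and 30.2 with MLX shRNA. Its log2 differences from own controls were -0.92 with MLX-DN and -0.079 with MLX shRNA, the latter not called. From the other control they were -0.46 and -0.54.

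**Figure D2:**
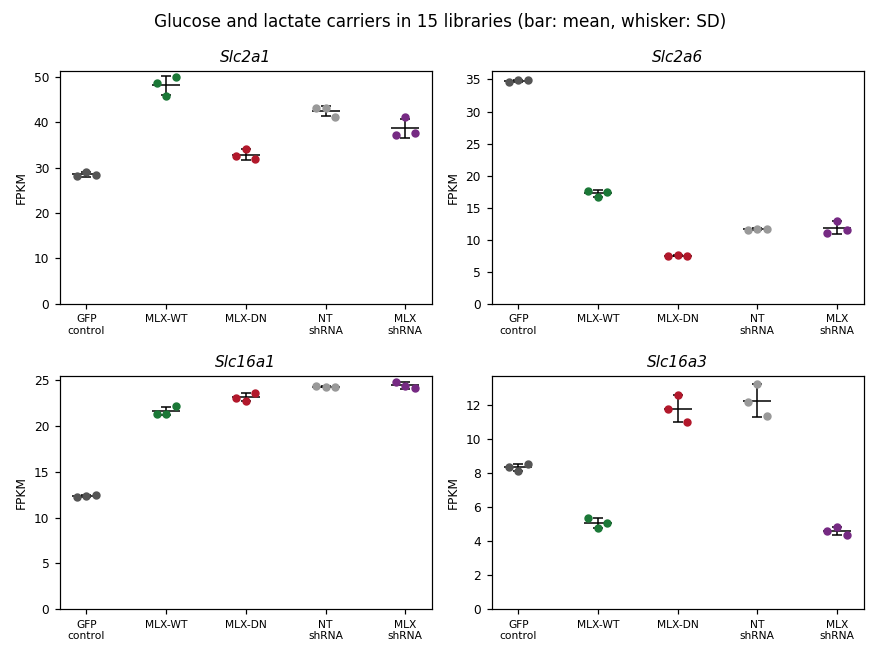
FPKM of the glucose carriers Slc2a1 and Slc2a6 and the lactate carriers Slc16a1 and Slc16a3 in each of 15 libraries (points), with the mean and SD of each group (bar and whisker), on axes that start at 0; NT shRNA is the non-targeting shRNA. Slc2a6 averages 34.8 FPKM in the GFP control but 7.50 in the MLX-DN group, and Slc16a3 is at 5.06 with MLX-WT and 4.59 with MLX shRNA beside 11.8 with MLX-DN.

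Lactate carriers: 2 of 14 rows of the Slc16a family were members, Slc16a1 (MCT1), used for lactate entry and exit, and Slc16a3 (MCT4), the exporter of glycolytic muscle. Slc16a1 was low in the GFP control alone, while Slc16a3 was low with both MLX-WT and MLX shRNA. Control values of Slc16a1 were 12.3, 12.4 and 12.5 FPKM (GFP) and 24.3, 24.3 and 24.3 FPKM (non-targeting shRNA). Under MLX-WT the values were 21.4, 21.4 and 22.2 FPKM, under MLX-DN 23.03, 22.8 and 23.6 FPKM and under MLX shRNA 24.9, 24.4 and 24.1 FPKM. The GFP control libraries lay far below the rest, and the other 4 groups lay close together. MLX-WT and MLX-DN differed from the GFP control by 0.72 and 0.81 (SE 0.023 for each, adjusted p = 3.30e-13 and 3.92e-14 by limma), but from the non-targeting shRNA by -0.16 and -0.065. The last of these turned in sign with median centring and quantile normalization, and its call was lost without MLX-DN replicate 1 (adjusted p = 0.0530) or 2 (0.0733). MLX shRNA differed from the non-targeting shRNA by 0.0082 (adjusted p = 0.76 by limma). Without an MLX construct, Slc16a3 stood at 8.39, 8.11 and 8.53 FPKM in the GFP libraries and at 12.2, 13.3 and 11.4 FPKM in the non-targeting libraries. It stood at 5.34, 4.79 and 5.06 FPKM in MLX-WT libraries, 11.8, 12.6 and 11.03 FPKM in MLX-DN libraries and 4.58, 4.82 and 4.39 FPKM in MLX shRNA libraries. Every MLX-WT and MLX shRNA library lay below every library of both controls, and MLX-DN overlapped the non-targeting shRNA. MLX shRNA gave a log2 difference in Slc16a3 of -1.11 against its own control (SE 0.049, adjusted p = 2.09e-11 by limma) and -0.65 against the GFP control. MLX-WT gave -0.55 and -1.01. MLX-DN differed by 0.41 from the GFP control and by -0.049 from the non-targeting shRNA, the latter not called (adjusted p = 0.391 by limma).

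These monocarboxylate transporters reach the membrane bound to basigin (Bsg) or embigin (Emb), and lactate dehydrogenase (Ldha, Ldhb) makes or uses their cargo. All 4 genes were tested, and 3 rose and 1 fell with MLX-WT, none rose and 3 fell with MLX-DN and 2 rose and 2 fell with MLX shRNA against their own controls, beside 27.6% and 42.7% (MLX-WT), 32.6% and 48.8% (MLX-DN) and 30.8% and 39.3% (MLX shRNA) of all tested genes. Emb read 8.99, 9.42 and 9.95 FPKM in the GFP control, 22.7, 22.3 and 23.04 with MLX-WT and 5.99, 5.78 and 5.77 with MLX-DN. The non-targeting shRNA libraries read 8.17, 7.84 and 8.02 and the MLX shRNA libraries 1.24, 1.46 and 1.57. Its log2 differences were 1.11 and 1.30 with MLX-WT against the GFP and non-targeting controls, -0.54 and -0.35 with MLX-DN, and -1.55 and -1.74 with MLX shRNA against the non-targeting and GFP controls. Bsg was far more abundant, at 248 FPKM with MLX-DN and 365 with MLX-WT at the ends of its range, with 0.18, -0.38 and 0.11 against own controls. Of the 12 other Slc16a rows, 7 were under 1 FPKM in every library.

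Amino acid carriers: 13 of 35 rows of the Slc1a, Slc3a, Slc7a and Slc38a families were members. Against the GFP control, 10 of them rose and 2 fell with MLX-WT and 8 rose and 4 fell with MLX-DN, but the non-targeting shRNA was also higher than the GFP control in 9 and lower in 1, beside 37% and 37.1% of tested genes. With MLX shRNA 5 rose and 5 fell against its own control, and the shares over all tested genes in the 3 comparisons were 27.6% and 42.7% (MLX-WT), 32.6% and 48.8% (MLX-DN) and 30.8% and 39.3% (MLX shRNA). Against both controls 4 were higher and 2 lower with MLX-WT, none higher and 3 lower with MLX-DN, and 5 higher and 3 lower with MLX shRNA, beside 11.4% and 23.5% (MLX-WT), 15.1% and 34.9% (MLX-DN) and 21.4% and 28% (MLX shRNA) of tested genes. With median centring the MLX-DN count became 2 and 2 and the MLX shRNA count 7 and 3, beside 25.3% and 21.9% and 27.8% and 22% of tested genes.

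Slc7a5 (LAT1), which brings in leucine and other large neutral amino acids, and Slc3a2 (CD98), the heavy chain that carries it to the membrane, were both lowest in the GFP control and highest with MLX shRNA. Slc7a5 read 37.5, 38.6 and 39.3 FPKM in the GFP control libraries and 56.3, 59.4 and 56.7 FPKM in the non-targeting shRNA libraries. The MLX-WT libraries read 56.4, 55.6 and 56.1 FPKM, the MLX-DN libraries 52.6, 51.5 and 50.3 FPKM and the MLX shRNA libraries 65.9, 67.98 and 65.6 FPKM. The GFP control was lowest and MLX shRNA highest, with no overlap of either with any other group. The log2 differences in Slc7a5 were 0.52 for MLX-WT and 0.40 for MLX-DN against the GFP control, and 0.20 for MLX shRNA against the non-targeting shRNA (SE 0.026, adjusted p = 4.47e-06 by limma). Against the other control they were -0.035, -0.15 and 0.76, of which the first was not called. Slc3a2 averaged 41.4 ± 0.781 FPKM in the GFP control, 55.4 ± 0.515 with MLX-WT, 50.6 ± 1.19 with MLX-DN, 60.8 ± 0.492 with the non-targeting shRNA and 67.2 ± 1.71 with MLX shRNA (SD, n = 3). Both genes had the same order of group means, from the GFP control through MLX-DN, MLX-WT and the non-targeting shRNA to MLX shRNA. Slc38a2 (SNAT2), a sodium-coupled carrier of small neutral amino acids and the most abundant of the 13, read 81.4, 80.9 and 80.4 FPKM in the GFP control and 86.1, 86.1 and 87.6 with the non-targeting shRNA. Its MLX-WT libraries read 102, 99.9 and 98.4, its MLX-DN libraries 87.9, 85.1 and 88.8 and its MLX shRNA libraries 103, 94.4 and 99.8 FPKM. MLX-WT and MLX shRNA libraries lay above both controls, at 0.30 and 0.21 for MLX-WT and 0.19 and 0.29 for MLX shRNA against the own and the other control.

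Slc7a2 (CAT2), a carrier of arginine, lysine and ornithine, was higher than both controls with MLX-WT and lower than both with MLX-DN and with MLX shRNA. Control values of Slc7a2 were 6.88, 7.02 and 6.91 FPKM (GFP) and 6.66, 6.78 and 7.26 FPKM (non-targeting shRNA). Under MLX-WT the values were 10.1, 9.69 and 10.1 FPKM, under MLX-DN 4.999, 4.75 and 4.78 FPKM and under MLX shRNA 2.03, 1.90 and 2.11 FPKM. The 2 controls overlapped, MLX-WT lay above both, MLX-DN below both and MLX shRNA lowest of all. MLX-WT differed by 0.42 and 0.43, MLX-DN by -0.39 and -0.38 and MLX shRNA by -1.15 and -1.15 against the own and the other control (SE 0.032 and adjusted p = 6.36e-14 by limma for MLX shRNA against its own). Slc38a10, a member of the same sodium-coupled family, had the same signs, at 0.14 and 0.20 for MLX-WT, -0.32 and -0.26 for MLX-DN and -0.25 and -0.31 for MLX shRNA. Slc1a5 (ASCT2), a glutamine and neutral amino acid exchanger, rose with MLX shRNA to 7.30, 7.09 and 7.21 FPKM from 4.91, 5.38 and 4.45 with the non-targeting shRNA, a difference of 0.41, with 0.40 against the GFP control. Its MLX-DN difference from the GFP control was -0.11, a call lost under 6 alternatives and turned in sign by quantile normalization.

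Slc38a7, the lysosomal glutamine carrier, stood far apart in the 2 controls. Without an MLX construct, Slc38a7 stood at 5.84, 5.95 and 6.05 FPKM in the GFP libraries and at 15.99, 16.9 and 15.7 FPKM in the non-targeting libraries. It stood at 9.02, 8.54 and 8.71 FPKM in MLX-WT libraries, 12.04, 11.9 and 10.9 FPKM in MLX-DN libraries and 16.9, 16.8 and 16.1 FPKM in MLX shRNA libraries. The GFP control was lowest and both shRNA groups highest, and these overlapped each other. MLX-WT and MLX-DN differed by 0.44 and 0.78 from the GFP control and by -0.76 and -0.42 from the non-targeting shRNA, while MLX shRNA differed from its own control by 0.032 (adjusted p = 0.432 by limma). Slc38a1 (SNAT1) and Slc7a1 (CAT1, an arginine and lysine carrier) had the same pair of signs with MLX-WT (0.35 and -0.27; 0.16 and -0.39) and MLX-DN (0.44 and -0.17; 0.30 and -0.24). Slc1a4 (ASCT1) averaged 10.4 FPKM in the GFP control and 12.6 to 14.3 in the other groups. Slc7a6 (y+LAT2) averaged 11.5 FPKM with MLX shRNA and 14.7 with its control, a difference of -0.31. Slc38a6, an orphan of the family, averaged 3.88 FPKM with MLX-WT and 5.53 in the GFP control, at -0.36 and -0.24 against the 2 controls. With MLX-DN it was -0.28 and -0.17, the latter call being lost under 2 alternatives. Slc3a1 averaged 5.86 to 7.24 FPKM, but 26.5% of its exon bases lie opposite Prepl, so its values are uncertain. Of the 22 other rows of these families 18 were under 1 FPKM in every library, and Slc7a11, the cystine importer, reached at most 3.79 (named after its values were seen).

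A list of 7 genes known to respond to amino acid shortage was set beside these carriers, and all were tested. Against own controls 4 rose and 3 fell with MLX-WT, 1 rose and 2 fell with MLX-DN and 4 rose and 3 fell with MLX shRNA, where the shares of all tested genes were 27.6% and 42.7% (MLX-WT), 32.6% and 48.8% (MLX-DN) and 30.8% and 39.3% (MLX shRNA). Asns, which makes asparagine and is a target of ATF4, averaged 37.7 FPKM in the GFP control, 71.9 with MLX-WT, 71.5 with MLX-DN, 67.7 with the non-targeting shRNA and 103 with MLX shRNA. Its difference was 0.59 with MLX shRNA against the non-targeting shRNA and 1.40 against the GFP control. Atf4 itself differed by 0.15, -0.10 and -0.083, and Chac1, which degrades glutathione, by -0.35, 0.086 and -0.20, in the order MLX-WT, MLX-DN, MLX shRNA.

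**Figure D3:**
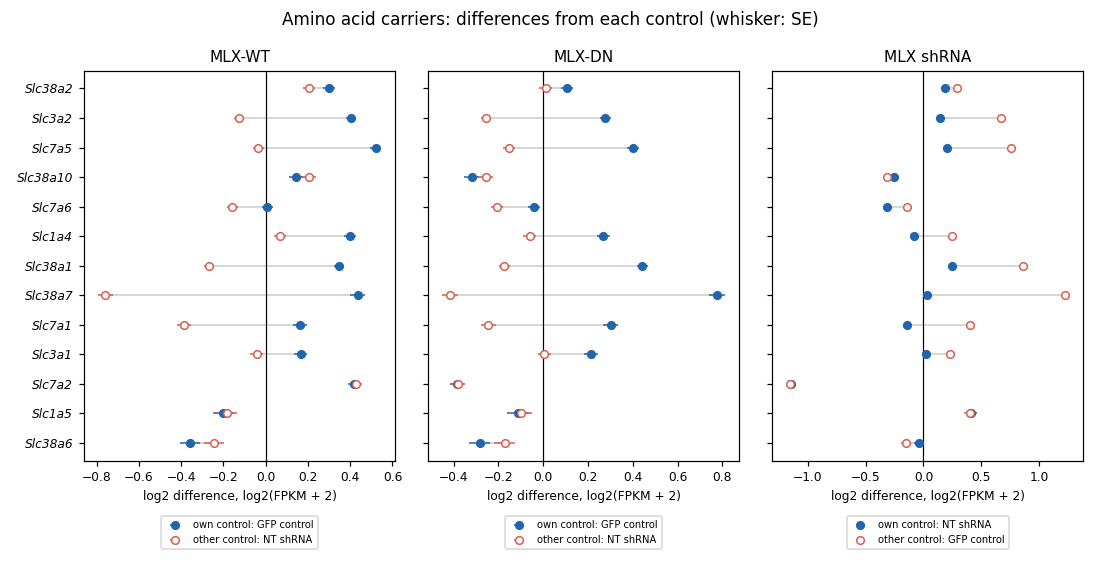
Log2 differences of the 13 amino acid carriers with MLX-WT, MLX-DN and MLX shRNA from their own control (filled) and the other control (open), with SE, on the log2(FPKM + 2) scale; NT shRNA is the non-targeting shRNA and genes are ordered by mean FPKM. The 2 points of Slc7a2 nearly coincide in each panel, while those of Slc38a7 lie 0.78 and -0.42 from 0 with MLX-DN.

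Mitochondrial carriers: 24 of 47 rows of the Slc25a family were members. With MLX-WT 10 rose and 6 fell against the GFP control, with MLX-DN 11 rose and 9 fell, and with MLX shRNA 8 rose and 7 fell against the non-targeting shRNA, beside 27.6% and 42.7% (MLX-WT), 32.6% and 48.8% (MLX-DN) and 30.8% and 39.3% (MLX shRNA) of tested genes. With median centring these splits were 13 and 2, 14 and 8, and 13 and 3, beside 37.8% and 31.6%, 42% and 39%, and 39.1% and 31.1% of tested genes. The MLX-WT group had 4 higher and 1 lower than both controls, the MLX-DN group 6 and 6 and the MLX shRNA group 7 and 5, where tested genes had 11.4% and 23.5% (MLX-WT), 15.1% and 34.9% (MLX-DN) and 21.4% and 28% (MLX shRNA). The non-targeting shRNA was higher than the GFP control in 10 and lower in 10 (all tested genes: 37% and 37.1%).

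The 3 most abundant carriers had small differences. Slc25a5 and Slc25a4, the ADP/ATP carriers ANT2 and ANT1, averaged 416 to 509 FPKM and 316 to 359 FPKM over the groups, and Slc25a3, the phosphate and copper carrier, 276 to 337. Their differences from the own control lay between -0.29 (Slc25a3 with MLX-DN, with -0.14 against the other control) and 0.039 (Slc25a5 with MLX-DN, not called). Slc25a5 has an annotated pseudogene copy, and the treatment of reads shared with it is not known. Slc25a39, the glutathione importer of mitochondria, differed from these in being low in 1 group. Slc25a39 read 58.9, 61.3 and 62.6 FPKM in the GFP control libraries and 60.7, 61.9 and 58.2 FPKM in the non-targeting shRNA libraries. The MLX-WT libraries read 61.9, 59.8 and 61.3 FPKM, the MLX-DN libraries 40.4, 40.3 and 39.4 FPKM and the MLX shRNA libraries 60.5, 63.9 and 62.9 FPKM. The 3 MLX-DN libraries lay below all 12 others, and those 12 overlapped. MLX-DN differed by -0.58 from the GFP control (SE 0.029, adjusted p = 3.68e-11 by limma), -0.57 from the non-targeting shRNA and -0.58 from MLX-WT. MLX-WT and MLX shRNA differed from their own controls by 0.0016 and 0.050, neither called (adjusted p = 0.963 and 0.14 by limma). The MLX-DN effect was -0.63 relative to the MLX shRNA effect in the test of the difference (adjusted p = 1.74e-09 by limma). Slc25a28 (mitoferrin-2, an iron importer) was likewise lowest with MLX-DN, at 5.26 FPKM beside 6.61 to 6.97 in the other groups, at -0.30 and -0.31 against the 2 controls.

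Slc25a10 and Slc25a1 were lower than both controls with MLX-DN and with MLX shRNA. Slc25a10 exchanges malate and succinate for phosphate. The 3 GFP control libraries held 8.48, 8.33 and 8.27 FPKM of Slc25a10 and the 3 non-targeting ones 5.30, 5.09 and 5.05 FPKM. MLX shRNA libraries held 3.22, 3.09 and 2.88 FPKM, MLX-WT libraries 7.09, 6.23 and 6.35 FPKM and MLX-DN libraries 2.97, 2.94 and 2.51 FPKM. The GFP control was highest, the non-targeting shRNA lay below MLX-WT, and MLX-DN and MLX shRNA lay below every control library. The differences were -1.11 and -0.57 with MLX-DN (SE 0.043, adjusted p = 2.02e-12 and 1.99e-08 by limma) and -0.50 and -1.03 with MLX shRNA against the own and the other control, and -0.28 and 0.26 with MLX-WT. Slc25a1 exports citrate for lipid synthesis. Control values of Slc25a1 were 12.5, 12.8 and 12.7 FPKM (GFP) and 10.9, 10.1 and 9.05 FPKM (non-targeting shRNA). Under MLX-WT the values were 10.96, 10.52 and 10.45 FPKM, under MLX-DN 8.001, 8.83 and 8.24 FPKM and under MLX shRNA 7.06, 6.61 and 6.85 FPKM. Its MLX-DN and MLX shRNA libraries lay below all control libraries. It was -0.50 and -0.21 with MLX-DN and -0.44 and -0.73 with MLX shRNA, and -0.22 and 0.076 with MLX-WT, the last not called (adjusted p = 0.149 by limma). Slc25a44, a carrier of branched-chain amino acids, averaged 5.62 FPKM with MLX shRNA, -0.37 and -0.61 against the 2 controls, and 7.41 FPKM with MLX-DN, -0.31 and -0.066.

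Slc25a20, the carnitine-acylcarnitine translocase that brings fatty acids in for oxidation, and Slc25a32, a folate and FAD carrier, were both lowest with the non-targeting shRNA. Without an MLX construct, Slc25a20 stood at 14.6, 14.7 and 16.8 FPKM in the GFP libraries and at 11.4, 11.9 and 11.5 FPKM in the non-targeting libraries. It stood at 17.4, 17.6 and 16.6 FPKM in MLX-WT libraries, 17.03, 17.7 and 16.2 FPKM in MLX-DN libraries and 19.1, 18.6 and 18.96 FPKM in MLX shRNA libraries. The MLX shRNA libraries lay above both controls, and MLX-WT and MLX-DN overlapped the GFP control. The MLX shRNA difference was 0.62 against the non-targeting shRNA (SE 0.043, adjusted p = 4.23e-09 by limma) and 0.27 against the GFP control. MLX-WT and MLX-DN differed by 0.15 and 0.13 from the GFP control and by 0.50 and 0.48 from the non-targeting shRNA, and the MLX-DN call against the GFP control was lost without GFP control replicate 1 or 2 or MLX-DN replicate 2 (adjusted p from 0.0536 to 0.0602 by limma). Slc25a32 read 10.8, 11.1 and 10.7 FPKM in the GFP control libraries and 7.57, 7.12 and 7.25 FPKM in the non-targeting shRNA libraries. The MLX-WT libraries read 11.95, 12.2 and 13.1 FPKM, the MLX-DN libraries 14.6, 13.52 and 13.8 FPKM and the MLX shRNA libraries 12.9, 10.8 and 11.7 FPKM. Here MLX-DN lay above both controls, at 0.31 and 0.78, while MLX shRNA differed by 0.56 from its own control but by 0.10 from the GFP control (not called, adjusted p = 0.0683 by limma).

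Slc25a37, Slc25a36, Slc25a33 and Slc25a38 were higher than both controls with MLX shRNA. Slc25a37 (mitoferrin-1) was 0.24 and 0.57, Slc25a36 (a pyrimidine nucleotide carrier) 0.22 and 0.37, Slc25a33 (also a pyrimidine nucleotide carrier) 0.30 and 0.48, and Slc25a38, the glycine carrier of heme synthesis, 0.41 and 0.44. With MLX-DN, Slc25a37 was 0.50 and 0.17 and Slc25a36 0.44 and 0.30, while Slc25a38 was -0.0072 and -0.039, with neither called. Slc25a38 read 7.77, 6.995 and 7.39 FPKM with the non-targeting shRNA and 10.45, 10.9 and 10.03 with MLX shRNA, which do not overlap. Slc25a29, a carrier of basic amino acids, rose from 4.53, 5.01 and 4.60 FPKM in the GFP control to 12.7, 14.5 and 13.6 with MLX shRNA. Against the non-targeting shRNA, which averaged 11.4 FPKM, the MLX shRNA difference was 0.22. With the other constructs the sign turned with the control, at 0.64 and -0.35 for MLX-WT and 0.83 and -0.17 for MLX-DN, the last call being lost under 2 alternatives. Slc25a30 averaged 13.3 to 19.98 FPKM and was 0.19 and 0.52 with MLX shRNA. Slc25a46, an outer membrane protein of mitochondrial shape, was 0.37 and 0.19 with MLX-DN. Slc25a12, the aspartate-glutamate carrier of the malate-aspartate shuttle, differed by 0.063 and 0.29 for MLX-WT and by 0.16 and 0.39 for MLX-DN. Its partner in that shuttle, the oxoglutarate carrier Slc25a11, averaged 58.1 FPKM with MLX-WT and 47.8 to 52.6 FPKM in the other groups, at 0.14 and 0.25 with MLX-WT. Slc25a17, the peroxisomal member of the family, was -0.28 and -0.15 with MLX-DN and -0.098 and -0.22 with MLX shRNA. Slc25a24, an ATP-Mg and phosphate carrier, stayed within 29.2 to 35.8 FPKM. The 23 other Slc25a rows reached at most 5.10 FPKM, and 11 of them were under 1 FPKM in every library.

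A list of 11 genes of carrier import and of pyruvate or calcium entry was set beside this family. Against own controls 6 rose and 2 fell with MLX-WT, 4 rose and 4 fell with MLX-DN and 6 rose and 3 fell with MLX shRNA, and of all tested genes 27.6% and 42.7% (MLX-WT), 32.6% and 48.8% (MLX-DN) and 30.8% and 39.3% (MLX shRNA) did. Mpc1, a subunit of the mitochondrial pyruvate carrier, averaged 46.1 FPKM in the GFP control, 62.2 with MLX-WT, 75.3 with MLX-DN, 55.3 with the non-targeting shRNA and 71.1 with MLX shRNA, and was higher than both controls with each MLX construct. Its differences were 0.42 and 0.16, 0.69 and 0.43, and 0.35 and 0.60. The other subunit, Mpc2, differed from the own control by -0.046, 0.031 and 0.015, none called. Mcu, the calcium uniporter, was -0.72 and -0.12 with MLX-DN and -0.22 and -0.82 with MLX shRNA, lower than both controls in each.

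**Figure D4:**
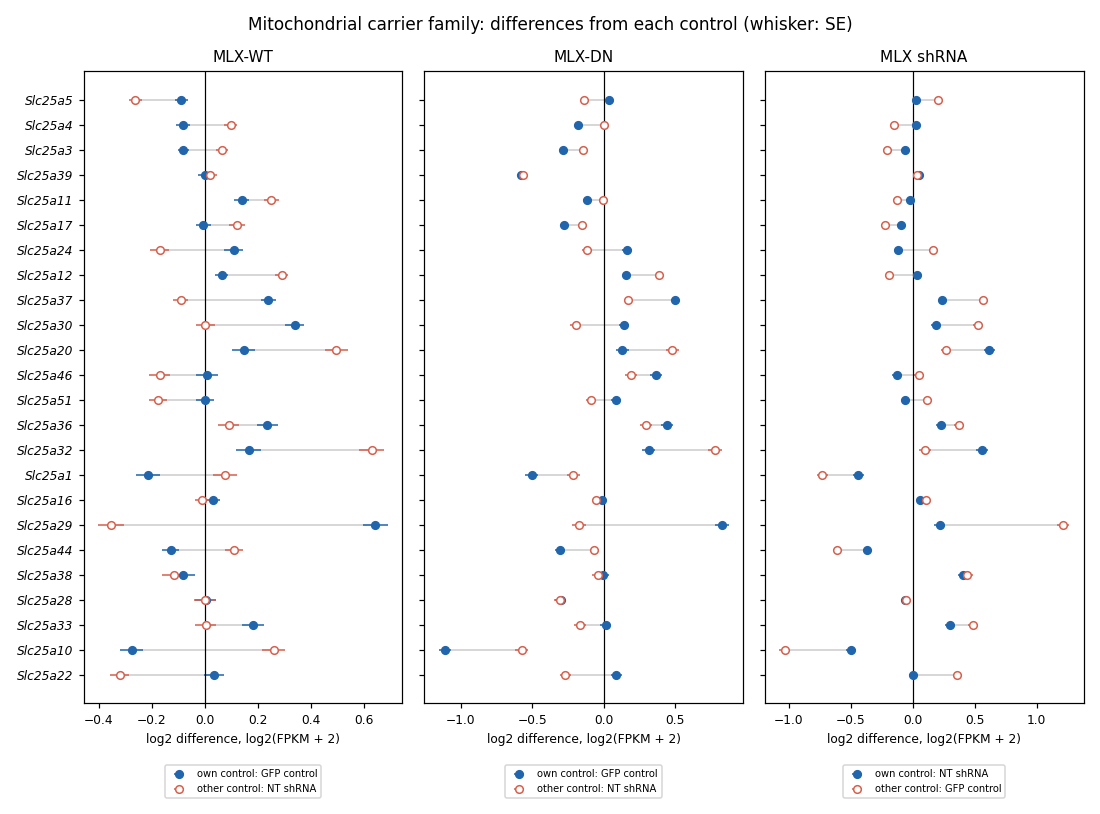
Log2 differences of the 24 mitochondrial carriers with MLX-WT, MLX-DN and MLX shRNA from their own control (filled) and the other control (open), with SE, on the log2(FPKM + 2) scale; panels have axes of their own and genes are ordered by mean FPKM. With MLX-DN both points of Slc25a39 lie near -0.57 and those of Slc25a10 at -1.11 and -0.57; the widest gap between the points is that of Slc25a29.

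Metal ion carriers: 20 members move zinc, iron, copper, manganese, magnesium or heme. With MLX-WT 10 rose and 7 fell, with MLX-DN 9 rose and 8 fell and with MLX shRNA 3 rose and 9 fell against own controls, beside 27.6% and 42.7% (MLX-WT), 32.6% and 48.8% (MLX-DN) and 30.8% and 39.3% (MLX shRNA) of tested genes. The last split was 7 and 8 with median centring, beside 39.1% and 31.1%. Slc39a1 (ZIP1), a zinc importer, was lower than both controls with all 3 MLX constructs. Control values of Slc39a1 were 45.5, 47.1 and 45.98 FPKM (GFP) and 45.7, 46.6 and 48.7 FPKM (non-targeting shRNA). Under MLX-WT the values were 36.7, 35.9 and 36.6 FPKM, under MLX-DN 38.4, 38.9 and 37.4 FPKM and under MLX shRNA 22.8, 23.9 and 22.8 FPKM. The control libraries lay together at the top and the MLX shRNA libraries at the bottom, with no overlap. MLX shRNA differed by -0.96 and -0.94 (SE 0.027, adjusted p = 9.26e-14 and 3.97e-14 by limma), MLX-WT by -0.33 and -0.35 and MLX-DN by -0.26 and -0.28 against the own and the other control. An annotated pseudogene of Slc39a1 exists, and the handling of shared reads is not known here. Slc40a1 (ferroportin), the cellular iron exporter, passed the threshold in the GFP control alone. The 3 GFP control libraries held 6.36, 6.08 and 6.35 FPKM of Slc40a1 and the 3 non-targeting ones 1.86, 2.27 and 2.47 FPKM. MLX shRNA libraries held 0.878, 0.916 and 0.905 FPKM, MLX-WT libraries 1.09, 1.12 and 1.16 FPKM and MLX-DN libraries 1.34, 1.45 and 1.38 FPKM. All other groups were low, and the 3 MLX groups lay below both controls. Since the GFP level selected this gene, its differences from the GFP control are given as a description, -1.40 for MLX-WT, -1.29 for MLX-DN, -1.51 for MLX shRNA and -0.98 for the non-targeting shRNA. Against the non-targeting shRNA, whose level played no part in the choice, they were -0.42, -0.31 and -0.53 (adjusted p = 2.71e-07, 9.83e-06 and 1.74e-08 by limma). Slc30a9, of the zinc exporter family, averaged 38.9 FPKM with MLX-DN and 23.2 in the GFP control, at 0.70 and 0.16 against the 2 controls. Slc48a1, which moves heme out of lysosomes, was 0.17 and 0.56 with MLX-WT, and MLX-DN differed from the GFP control by -0.48. Slc39a7 (ZIP7), which releases zinc from the endoplasmic reticulum and was the most abundant of the 20, stayed within 94.98 to 106 FPKM. Slc31a2, a copper carrier, stayed within 4.44 to 5.19 FPKM.

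Sodium, chloride, bicarbonate, calcium and proton carriers numbered 15, and none was higher than both controls with MLX-WT while 8 were lower than both (7 with median centring). With MLX-DN 4 were higher and 4 lower than both (8 and 4 with median centring), and with MLX shRNA 3 and 7, where the shares of tested genes were 11.4% and 23.5% (MLX-WT), 15.1% and 34.9% (MLX-DN) and 21.4% and 28% (MLX shRNA). With median centring those shares were 18.1% and 13.6% for MLX-WT and 25.3% and 21.9% for MLX-DN. Slc12a7 (KCC4), a potassium-chloride cotransporter, was lower than both controls in every MLX group. Slc12a7 read 18.4, 18.7 and 18.3 FPKM in the GFP control libraries and 14.2, 13.9 and 13.6 FPKM in the non-targeting shRNA libraries. The MLX-WT libraries read 11.4, 10.8 and 10.95 FPKM, the MLX-DN libraries 9.19, 9.49 and 9.20 FPKM and the MLX shRNA libraries 7.02, 7.28 and 7.64 FPKM. Each MLX group lay below all 6 control libraries. MLX-WT differed by -0.65 and -0.29, MLX-DN by -0.86 and -0.49 and MLX shRNA by -0.77 and -1.14 (SE 0.029, adjusted p = 2.64e-12 and 6.89e-15 by limma for MLX shRNA). Slc4a3 (AE3), a chloride-bicarbonate exchanger of muscle and nerve, averaged 20.02 ± 0.214 FPKM in the GFP control, 19.9 ± 0.518 with the non-targeting shRNA and 20.5 ± 0.342 with MLX-DN, but 13.1 ± 0.351 with MLX-WT and 10.4 ± 0.465 with MLX shRNA (SD, n = 3). MLX-WT differed by -0.55 and -0.54 and MLX shRNA by -0.82 and -0.83, while MLX-DN was not called against either control. Slc4a2 (AE2), a related exchanger and the most abundant of the 15, averaged 20.6 to 28.8 FPKM, with 14.9% of its exon bases opposite Fastk. Slc9a2 (NHE2), a sodium-proton exchanger, was nearly silent in the GFP control. Without an MLX construct, Slc9a2 stood at 0.625, 0.528 and 0.727 FPKM in the GFP libraries and at 3.42, 3.74 and 3.51 FPKM in the non-targeting libraries. It stood at 2.32, 2.35 and 2.52 FPKM in MLX-WT libraries, 6.43, 6.18 and 6.51 FPKM in MLX-DN libraries and 6.40, 6.45 and 6.56 FPKM in MLX shRNA libraries. No MLX group overlapped its own control, and MLX-DN and MLX shRNA lay highest. On the log2(FPKM + 2) scale, which understates change at such levels, MLX-DN differed by 1.67 and 0.59 and MLX shRNA by 0.61 and 1.69, while MLX-WT turned from 0.74 to -0.34 with the control. The levels of MLX-DN and MLX shRNA brought this gene past the threshold, so those differences were favoured by the choice of members.

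Among phosphate carriers, Slc20a1 (PiT-1) was lower than both controls with MLX-WT and higher than both with MLX-DN and MLX shRNA. The 3 GFP control libraries held 20.1, 19.4 and 19.5 FPKM of Slc20a1 and the 3 non-targeting ones 25.9, 25.9 and 26.6 FPKM. MLX shRNA libraries held 35.2, 35.1 and 33.99 FPKM, MLX-WT libraries 13.3, 12.6 and 13.2 FPKM and MLX-DN libraries 29.4, 29.2 and 29.4 FPKM. The MLX-WT libraries lay below all others and the MLX shRNA libraries above all others. MLX-WT differed by -0.52 and -0.90, MLX-DN by 0.53 and 0.16 and MLX shRNA by 0.39 and 0.76, and MLX-DN differed from MLX-WT by 1.06 (SE 0.025, adjusted p = 1.18e-14 by limma). Slc29a1 (ENT1), the nucleoside transporter, read 351, 346 and 357 FPKM in the GFP control and 336, 347 and 328 with the non-targeting shRNA. Its MLX-WT libraries read 275, 272 and 277, its MLX-DN libraries 300.4, 308 and 298 and its MLX shRNA libraries 232, 250.02 and 243 FPKM. Its MLX shRNA libraries were the lowest, at -0.48 and -0.54 against the 2 controls, and MLX-WT was -0.36 and -0.29. Slc19a2, the thiamine transporter, averaged 6.09 FPKM with MLX shRNA and 2.43 to 3.88 in the other groups, and MLX shRNA is the group that brought it past the threshold. Slc33a1, which carries acetyl-CoA into the endoplasmic reticulum, averaged 20.9 FPKM with MLX-DN against 11.4 and 16.3 in the controls, at 0.77 and 0.32. With MLX shRNA it was also higher than both controls, at 0.21 and 0.66. Slc44a4, a choline transporter-like protein, averaged 12.9 FPKM with MLX-WT, at 0.68 and 0.53. It was higher than both controls with MLX-DN (0.42 and 0.27) and MLX shRNA (0.22 and 0.37) as well. Its more abundant relative Slc44a2 was -0.14 and -0.41 with MLX-WT. Slc50a1, a sugar carrier of the SWEET family, averaged 9.67 FPKM with MLX-DN and 19.3 in the GFP control, at -0.86 and -0.34. Slc35a4, of the nucleotide sugar family, averaged 19.7 FPKM with MLX shRNA and 29.9 in the GFP control, at -0.25 and -0.56.

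Of 8 carriers of other amino acids and peptides, Slc6a6, the taurine transporter that fills muscle with taurine, was by far the most abundant. Control values of Slc6a6 were 97.04, 95.8 and 99.8 FPKM (GFP) and 157, 160.3 and 159 FPKM (non-targeting shRNA). Under MLX-WT the values were 131, 128 and 131 FPKM, under MLX-DN 134, 132 and 132 FPKM and under MLX shRNA 109.9, 109 and 108 FPKM. The GFP control was lowest and the non-targeting shRNA highest, with the MLX groups between them. MLX shRNA differed by -0.53 from the non-targeting shRNA and by 0.16 from the GFP control, and MLX-WT and MLX-DN by 0.41 and 0.43 from the GFP control and by -0.29 and -0.26 from the non-targeting shRNA. Slc43a2 (LAT4), a sodium-independent carrier of branched-chain and aromatic amino acids, read 11.2, 10.9 and 11.2 FPKM in the GFP control, 7.72, 7.45 and 7.64 with MLX-WT and 4.32, 4.54 and 4.43 with MLX-DN. The non-targeting shRNA read 4.89, 4.92 and 4.64 and MLX shRNA 5.53, 6.13 and 5.84. MLX-DN differed by -1.02 from the GFP control but by -0.085 from the non-targeting shRNA, a small value that turned in sign with median centring and quantile normalization. The 4 genes that are no carriers were measured alongside. Slc9a3r1 and Slc9a3r2 (NHERF1 and NHERF2), scaffolds that anchor transporters, differed between MLX-DN and the GFP control by -0.67 and -0.82, and between MLX-DN and the non-targeting shRNA by 0.055 and 0.089, with neither of the latter called. Slc9a3r1 passed the member threshold in the GFP control alone, which favoured its fall against that control. Slc4a1ap (kanadaptin) averaged 14.2 to 17.9 FPKM.

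**Figure D5:**
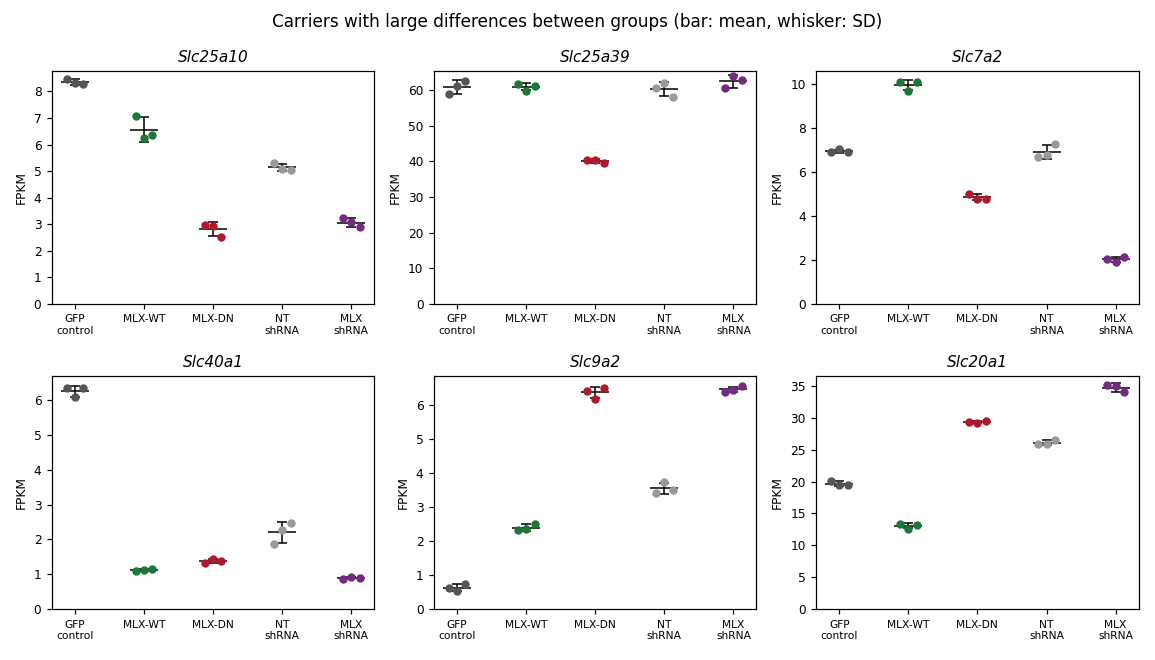
FPKM of 6 carriers in each of 15 libraries (points), with the mean and SD of each group (bar and whisker), on axes that start at 0; NT shRNA is the non-targeting shRNA. Slc25a39 is low with MLX-DN alone (40.1 FPKM), Slc7a2 is highest with MLX-WT (9.95) and lowest with MLX shRNA (2.02), and Slc20a1 is lowest with MLX-WT (13.1).

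Both MLX-DN and MLX shRNA stand, by the series description, for decreased MLX activity, so their effects, each against its own control, were set against each other by an interaction test. In 51 members the MLX-DN effect was higher and in 36 it was lower than the MLX shRNA effect, beside 32% and 42.8% of tested genes. The gap between the controls enters this test, since each effect has a control of its own. The 5 largest differences upward were Slc16a3 (1.53), Slc9a2 (1.07), Slc6a6 (0.97), Slc30a9 (0.88) and Slc4a3 (0.86). The 5 largest downward were Slc2a6 (-1.98), Slc43a2 (-1.22), Slc9a3r1 (-1.01), Slc9a3r2 (-0.86) and Slc50a1 (-0.83). Slc9a3r1 passed the member threshold in the GFP control alone, and Slc9a2 was brought past it by MLX-DN and MLX shRNA. Those levels enter this test, so the values of Slc9a3r1 and Slc9a2 are given as a description. For Slc16a3 the difference had an SE of 0.07 and an adjusted p of 2.68e-11 by limma, and for Slc2a6 an SE of 0.055 and 7.43e-14.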

How the data were processed

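Messenger RNA from 15 C2C12 libraries was read from 1 table that the authors deposited, with log2 values per gene, which were read as log2(FPKM + 2) because the lowest value is exactly 1 in each library, so 2 to the power of the value minus 2 gives FPKM. Per the labels' protocols total RNA was enriched for poly(A) and made into stranded libraries, and per the submitters' processing notes CASAVA, TopHat2, STAR and the mouse build mm9 were used, whose roles and versions the sources used here do not state. Genes at FPKM of 1 or more in at least 3 libraries were tested (11945). Group means over 15 libraries were fitted with limma 3.58.1 (R 4.3.3, moderated variances with a trend), with two-sided p-values adjusted by Benjamini and Hochberg over all tested genes and a threshold of 0.05. Because of the offset of 2, differences of low genes are understated. FPKM means and SDs were computed in Python with pandas 2.3.3. The fit was tested on simulated data with 200 changed genes, all other genes equal between the compared groups and independent noise. Far more genes were called in the real data, so that test cannot tell how reliable these calls are. Depth was read from steps in low values: 61.3% to 64.3% of them lay within 0.05 of whole reads, beside 6.38% to 7.54% at other depths, so counts were not rebuilt and the count tests were not run. A floor of 3 reads over 2000 bases lies at 0.0181 to 0.0405 FPKM, which covers counting error only. Alternatives were offsets of 1 and 0.1, no filter and one at 5 FPKM, median centring, quantile normalization, no trend, only the groups compared, a replicate block, each library left out, and member thresholds of 2.5 and 10 FPKM. Counts without members past the threshold in 1 group alone, and without the 4 genes that are no carriers, were added after seeing the data. The members, gene lists, motifs and marker lists were chosen with earlier results of these data known. Named were all glucose, lactate and amino acid members, mitochondrial carriers by level and by largest change, the 5 largest changes each way in the comparisons of MLX-WT and MLX-DN with the GFP control, of MLX shRNA with its control, of MLX-DN with MLX-WT and of the effects, members nearest the threshold and the most abundant of each other class. Promoters are RefSeq's, matched by symbol.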

Additional observations from a re-analysis of the deposited data

Results flagged for a closer look

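In 13 of the 62 named members the effects of MLX-DN and of MLX shRNA, each against its own control, were called in opposite directions, and the interaction test of the difference was called as well by limma. The same held for 23 of all 112 members (20.5%) and for 21.6% of all tested genes, so the members' share is near the background. Values are the MLX-DN effect minus the MLX shRNA effect on the log2(FPKM + 2) scale, with the 2 effects in parentheses. The larger upward differences were 1.53 for Slc16a3 (0.41 and -1.11), 0.97 for Slc6a6 (0.43 and -0.53), 0.88 for Slc30a9 (0.70 and -0.18), 0.50 for Slc25a46 (0.37 and -0.13) and 0.44 for Slc7a1 (0.30 and -0.14). Smaller upward differences were 0.35 for Slc1a4 (0.27 and -0.085), 0.32 for Slc2a1 (0.19 and -0.13), 0.28 for Slc25a24 (0.16 and -0.12) and 0.20 for Slc44a2 (0.072 and -0.13). Downward differences were -1.22 for Slc43a2 (-1.02 and 0.20), -1.01 for Slc9a3r1 (-0.67 and 0.34), -0.67 for Slc48a1 (-0.48 and 0.20) and -0.53 for Slc1a5 (-0.11 and 0.41). The gap between the non-targeting shRNA and the GFP control enters each value and was 0.46 for Slc16a3, 0.69 for Slc6a6, -0.94 for Slc43a2 and -0.73 for Slc9a3r1, and its part in the differences was not tested. MLX-DN against the non-targeting shRNA was -0.049 for Slc16a3, -0.26 for Slc6a6, -0.085 for Slc43a2 and 0.055 for Slc9a3r1. Slc9a3r1 passed the member threshold in the GFP control alone, which favours a fall against it. Of the calls behind these differences, that of Slc1a5 with MLX-DN was lost under 6 alternatives and that of Slc44a2 with MLX-DN under 2. Those with MLX shRNA were lost under 5 alternatives for Slc1a4, 3 for Slc25a46, 1 for Slc25a24 and 1 for Slc2a1.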

How the results depend on the processing

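Counts of called genes over all members kept within 1.5 times of their value under the alternatives run, except for MLX-DN, where they moved with the scaling of the libraries, as did the counts of single carrier classes given above. Against the non-targeting shRNA, 21 members were higher and 66 lower with MLX-DN as deposited, 36 and 42 with median centring and 33 higher with quantile normalization. The shares of all tested genes moved too. They were 21% and 48.7% as deposited, 34.6% and 31.1% with median centring and 30.9% higher with quantile normalization. Members higher than both controls with MLX-DN numbered 20 as deposited and 31 with median centring, beside 15.1% and 25.3% of tested genes. Among named members, 11 differences that were called as deposited or under the alternative turned in sign, all under these scalings. With median centring, MLX-DN against the non-targeting shRNA became 0.028 for Slc16a1, 0.091 for Slc25a11, 0.0080 for Slc43a2 and 0.0041 for Slc48a1, and against the GFP control 0.028 for Slc39a7. With quantile normalization, MLX-DN against the non-targeting shRNA became 0.0079 for Slc16a1 and 0.030 for Slc43a2, against the GFP control 0.019 for Slc1a5 and 0.10 for Slc25a38, MLX shRNA against its control -0.064 for Slc25a5, and MLX-WT against the non-targeting shRNA -0.0055 for Slc25a3. The cause was not tested. Leaving out 1 library gave 43 to 45 members higher and 40 to 41 lower for MLX-WT against the GFP control, and 35 to 39 higher and 38 to 40 lower for MLX shRNA against its control. Of the 11945 tested genes, 3055 to 3187 were then higher and 4705 to 4952 lower for MLX-WT. For MLX shRNA 3441 to 3628 were higher and 4448 to 4567 lower. At a member threshold of 2.5 FPKM there were 138 members and at 10 FPKM 78. Whether replicate numbers pair the libraries cannot be settled with 3 libraries a group. Correlations of same-numbered deviations were 0.014 to 0.051 for MLX-WT with the GFP control, -0.032 to 0.046 for MLX-DN with it and -0.088 to 0.15 for the shRNA groups. With the replicate number as a block, 47 and 42 members were called higher and lower for MLX-WT, 50 and 41 for MLX-DN and 36 and 39 for MLX shRNA, and each library correlated best with its own number in 3, 1 and 1 of 3 pairs of these comparisons. Of the 11945 tested genes, that block gave 3324 and 5103 for MLX-WT, 3909 and 5845 for MLX-DN and 3691 and 4703 for MLX shRNA. Low FPKM limits what can be said of Slc9a2 and Slc40a1 in the groups where they are near 1 FPKM.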
